A study of Homo sapiens with 2 samples.

Results

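The 10 genes described here encode feedback inhibitors of the ERK pathway: the dual-specificity phosphatases DUSP1, DUSP4, DUSP5, DUSP6, DUSP10 and DUSP16, the Sprouty proteins SPRY2 and SPRY4, and the Sprouty-related proteins SPRED1 and SPRED2. They were chosen by gene name, and all 10 were found among the 60448 genes of the deposited expression table. The data are RNA-seq of HepG2, a human liver tumour cell line. Cells received an siRNA against SPRTN, the protease that digests proteins crosslinked to DNA, or a negative control siRNA. Both siRNAs were used at 40 nM, with 24 h in the transfection mix and 72 h in total before RNA isolation. Each group is 1 library of 1 cell line. The title of the table mentions row means without saying of what, so a column may pool more than 1 culture. Only 1 siRNA against SPRTN was used, and the sources used here do not give the sequence of the control siRNA.

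In the ERK pathway, growth factors activate receptor tyrosine kinases, which load RAS with GTP and start the kinase relay RAF, MEK and ERK. Active ERK enters the nucleus and induces its own brakes. The dual-specificity phosphatases remove the activating phosphates from MAP kinases, the Sprouty proteins block the step between receptor and RAS, and the SPRED proteins bring the RAS inhibitor neurofibromin to the membrane. DUSP10 and DUSP16 act mainly on the related stress kinases JNK and p38, so the name feedback inhibitor of ERK fits them less well than the other members. In liver, this pathway carries signals for hepatocyte growth and regeneration, and several of these brakes are used as readouts of its activity.

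No member differed by 2-fold or more between the libraries on the log2(FPKM + 1) scale, which damps differences of weakly expressed genes; FPKM is the read number corrected for gene length and for library depth. The member with the largest difference was DUSP5, a nuclear phosphatase of ERK, at 8.01 FPKM in the SPRTN siRNA library, against 3.66 FPKM in the control library. At the other end stood DUSP16, at 37.0 FPKM in the SPRTN siRNA library and 56.6 FPKM in the control library. Between them, SPRY2, DUSP6, DUSP1 and SPRY4 were higher and SPRED1 and SPRED2 lower in the SPRTN siRNA library. DUSP10 and DUSP4 lay near or below 1 FPKM in both.

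The SPRTN siRNA library held about 67100000 reads assigned to genes, and the control library about 96400000. SPRTN itself was at 2.07 FPKM in the SPRTN siRNA library and 7.81 FPKM in the control library, which fits the labels. All 8 hepatocyte markers examined were expressed, with albumin (ALB) at 16435 and 9997 FPKM in the SPRTN siRNA and control libraries. Of the 8, 5 were higher in the SPRTN siRNA library and 3 lower, HNF4A among these at 151.5 and 167.7 FPKM. Of all genes at a mean FPKM of at least 1, 43.4% were higher and 56.6% lower. The 6 fibroblast markers summed to 9.57 FPKM in the SPRTN siRNA library and 9.96 FPKM in the control library, mostly from PDGFRB at 8.49 and 8.15 FPKM, and 2 of them were listed at 0 FPKM in both libraries. The 5 blood markers summed to 4.61 FPKM in the SPRTN siRNA library and 3.92 FPKM in the control library, mostly from CD14 at 3.43 and 3.21 FPKM, and 1 (PTPRC) was listed at 0 FPKM in both. The 7 endothelial markers summed to 14.3 FPKM in the SPRTN siRNA library and 7.55 FPKM in the control library. Of the 5 at a mean FPKM of at least 1, 4 were higher, among them CDH5 at 2.74 and 0.44 FPKM and LYVE1 at 3.67 and 1.24 FPKM. The other, TIE1, was lower, at 1.07 FPKM in the SPRTN siRNA library and 1.84 FPKM in the control library. The nuclear long RNA NEAT1 was at 74.5 FPKM in the SPRTN siRNA library and 29.3 FPKM in the control library. In the same order, the nuclear RNAs MALAT1 and RN7SK were at 110.2 and 43.2 FPKM and at 7.03 and 2.16 FPKM. KCNQ1OT1, another nuclear RNA, hardly differed at 0.79 and 0.82 FPKM. The part of these differences in the members' values was not tested. With 1 library per group there is no replicate check and no test. The 95% intervals given below are exact intervals from recovered read numbers and cover counting error only. In a bulk sample, fewer cells with a transcript and less of it per cell cannot be told apart.

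FPKM values are scaled by length, here the mean over all annotated transcripts of a gene. This mean can differ from the length of the transcripts expressed. The order of the members' levels, and sums over genes, are therefore approximate. In the SPRTN siRNA library DUSP6 was highest at 71.7 FPKM, then SPRED2 at 61.4, SPRY4 at 49.9, DUSP16 at 37.0, DUSP1 at 12.7, DUSP5 at 8.01, SPRY2 at 7.90, SPRED1 at 6.42, DUSP10 at 1.03 and DUSP4 at 0.32 FPKM. In the control library SPRED2 was highest at 73.2 FPKM, then DUSP6 at 58.2, DUSP16 at 56.6, SPRY4 at 46.6, DUSP1 at 11.5, SPRED1 at 8.77, SPRY2 at 5.78, DUSP5 at 3.66, DUSP10 at 0.90 and DUSP4 at 0.21 FPKM. The counting intervals of neighbours overlapped once in each library, for DUSP5 and SPRY2 in the SPRTN siRNA library and for DUSP6 and DUSP16 in the control library. DUSP5 stood sixth in the SPRTN siRNA library and eighth in the control library. The summed level of the 10 genes was 256.4 FPKM in the SPRTN siRNA library and 265.5 FPKM in the control library, a ratio of 0.965.

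**Figure D1:**
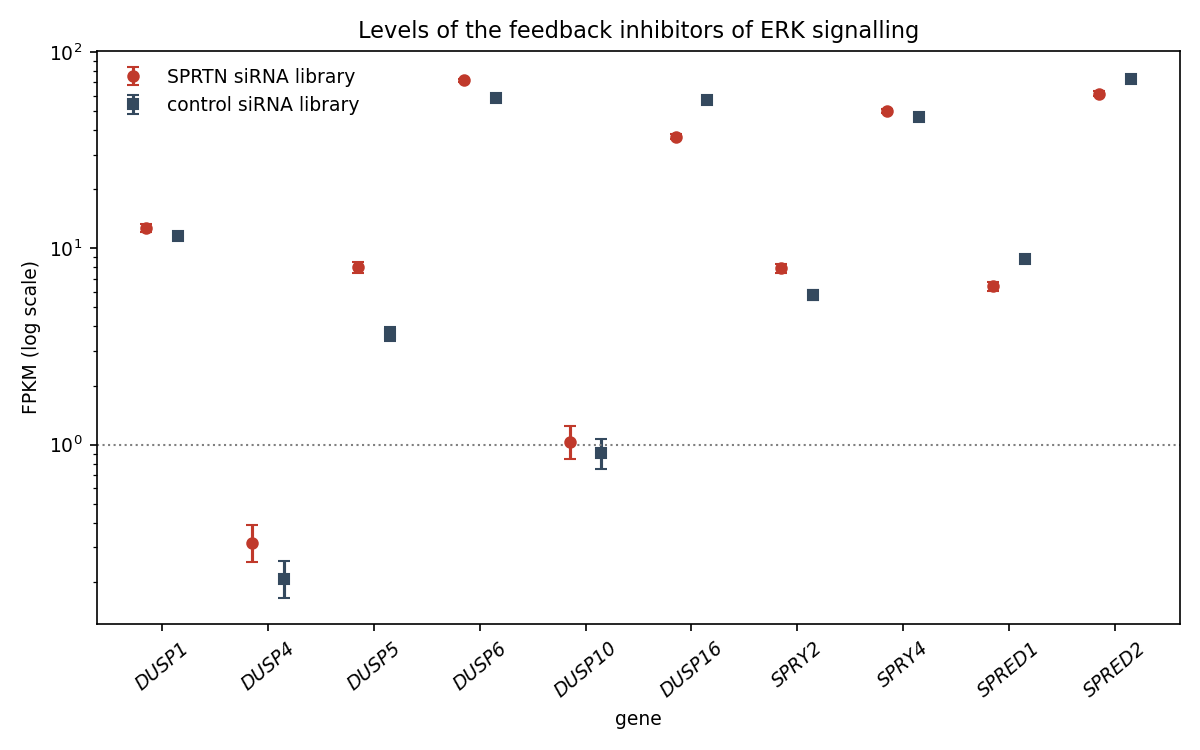
FPKM of each of the 10 genes on a log scale, with the SPRTN siRNA library as circles and the control library as squares; bars are exact 95% Poisson intervals of the reads and the dotted line marks 1 FPKM. DUSP5 shows the widest gap in favour of the SPRTN siRNA library (8.01 against 3.66 FPKM) and DUSP16 the widest in favour of the control library among the higher genes (37.0 against 56.6 FPKM).

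Of the 10 members, 8 had a mean FPKM of at least 1 and entered the comparison with the 13203 genes that passed the same filter; DUSP4 and DUSP10 did not. Of these 8, 0 were at least 2-fold higher, against 1.51% of all genes, and 0 were at least 2-fold lower, against 0.788%. As a plain ratio of FPKM, without the pseudocount, DUSP5 passed 2-fold at 2.19. At a 1.5-fold rule, DUSP5 was higher and DUSP16 lower, so 1 of 8 passed in each direction, against 5.04% of all genes for higher and 5.62% for lower. The log2 ratio was above 0 for 5 members, against 43.4% of all genes, and below 0 for 3, against 56.6%. The median log2 ratio was 0.11 over the 8 members and -0.05 over all genes. The counting interval of the ratio lay above 1 for 5 of the 8 members, against 31.2% of all genes, and below 1 for 3 of the 8, against 43.9%. Counting error alone is therefore exceeded in all 8, while the spread between cultures was not measured.

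**Figure D2:**
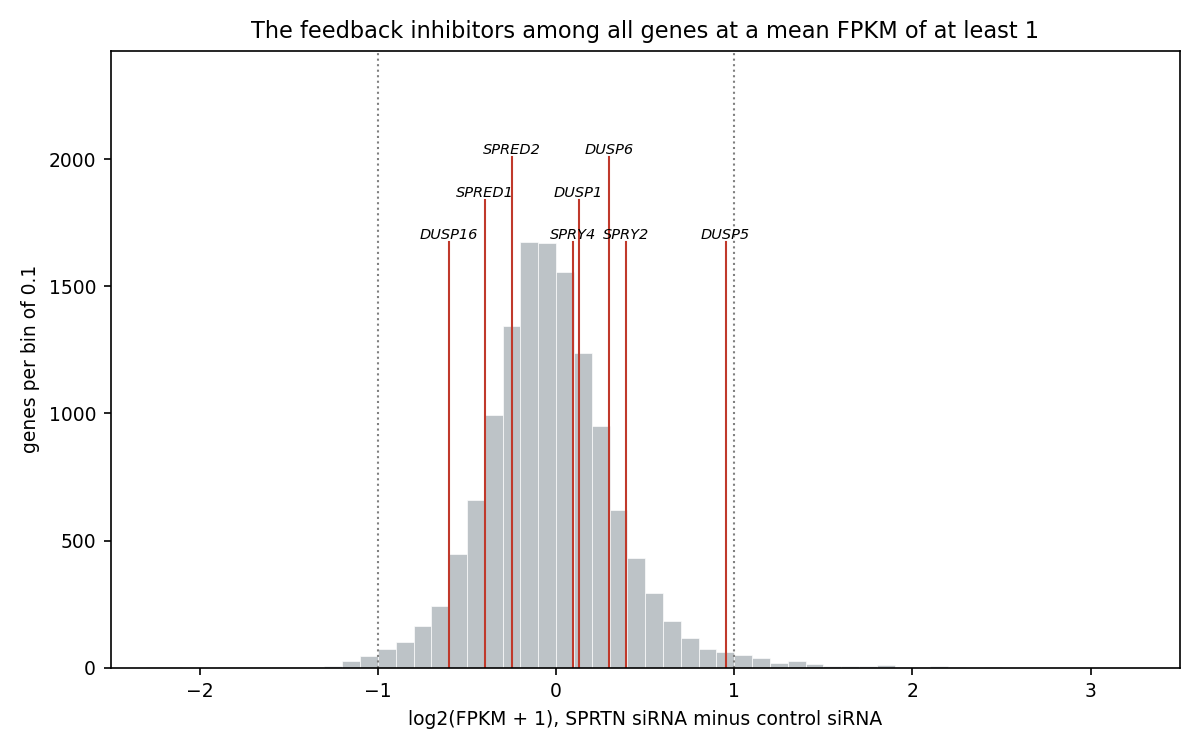
Number of genes per bin of the log2(FPKM + 1) difference, SPRTN siRNA minus control siRNA, for 13203 genes; red lines mark the 8 members that passed the filter and dotted lines mark 2-fold. All 8 members lie inside the 2-fold lines, from DUSP16 at -0.60 to DUSP5 at 0.95.

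Among the nuclear phosphatases, which immediate early signals induce, DUSP5 stood apart from DUSP1 in the size of its ratio. DUSP5 (chromosome 10, 110497838 to 110511544, plus strand, GRCh38) dephosphorylates ERK selectively and holds it in the nucleus. Its 8.01 FPKM in the SPRTN siRNA library and 3.66 FPKM in the control library came from 907 and 596 reads. The ratio was 2.19 (95% interval 1.97 to 2.43), or 0.95 on the log2(FPKM + 1) scale. Of the 13203 genes, 220 (1.67%) had a log2 ratio as high or higher. The processed pseudogene DUSP5P1 was at 2.19 FPKM in the SPRTN siRNA library and 1.64 FPKM in the control library. Reads of DUSP5 and this copy may not be fully separated, so the DUSP5 level is uncertain to that extent.

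DUSP1 (chromosome 5, 172768090 to 172771195, minus strand) dephosphorylates p38, JNK and ERK and is among the fastest genes to respond to stress and growth factors. It was at 12.7 FPKM in the SPRTN siRNA library and 11.5 FPKM in the control library, from 1715 and 2243 reads, a ratio of 1.10 (1.03 to 1.17). Of all genes, 28.8% had a log2 ratio as high or higher. DUSP4 (chromosome 8, 29333064 to 29350668, minus strand), a nuclear relative of DUSP1, was barely expressed, at 0.32 FPKM in the SPRTN siRNA library and 0.21 FPKM in the control library. These levels rest on 90 and 85 reads, and the ratio was 1.52 with a wide interval of 1.12 to 2.07. The remaining nuclear phosphatase gene of the family, DUSP2, was at 0.05 FPKM in the SPRTN siRNA library and listed at 0 FPKM in the control library.

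DUSP6 (chromosome 12, 89347232 to 89353271, minus strand) encodes the cytoplasmic phosphatase of ERK and is widely read as an index of ERK output. It was at 71.7 FPKM in the SPRTN siRNA library and 58.2 FPKM in the control library, from about 8271 and 9659 reads. The ratio of 1.23 (1.20 to 1.27) put it 2020th of 13203 from the top. Its cytoplasmic relatives DUSP7 and DUSP9, which are not members, had ratios in the same direction and smaller log2 values. DUSP7 was at 7.83 FPKM in the SPRTN siRNA library and 6.68 FPKM in the control library. DUSP9 was the most abundant phosphatase of the family, at 335.8 FPKM in the SPRTN siRNA library and 322.9 FPKM in the control library, with a log2 ratio of 0.06.

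The phosphatases of JNK and p38 went apart. DUSP16 (chromosome 12, 12474210 to 12562383, minus strand), which shuttles between nucleus and cytoplasm, was at 37.0 FPKM in the SPRTN siRNA library and 56.6 FPKM in the control library, from about 4394 and 9665 reads. It was 1.53-fold lower in the SPRTN siRNA library (1.48 to 1.59), with a log2 ratio of -0.60, and 688 genes (5.21%) had one as low or lower. DUSP10 (chromosome 1, 221701424 to 221742176, minus strand) was at 1.03 FPKM in the SPRTN siRNA library and 0.90 FPKM in the control library, from 106 and 133 reads. Its ratio of 1.15 has an interval that includes 1 (0.879 to 1.49), so a difference was not detectable at this depth. DUSP8, which is not a member, was at 4.24 FPKM in the SPRTN siRNA library and 2.85 FPKM in the control library.

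Summed over the 10 catalytically active MAP kinase phosphatases, members and relatives together, the level was 478.6 FPKM in the SPRTN siRNA library and 463.6 FPKM in the control library. The cytoplasmic phosphatases of ERK (DUSP6, DUSP7, DUSP9) made up 86.8% of this sum in the SPRTN siRNA library, against 83.7% in the control library, and DUSP9 alone 70.2% against 69.7%. The nuclear inducible phosphatases (DUSP1, DUSP2, DUSP4, DUSP5) made up 4.40% in the SPRTN siRNA library, against 3.32% in the control library. The phosphatases of JNK and p38 (DUSP8, DUSP10, DUSP16) made up 8.84% in the SPRTN siRNA library, against 13.03% in the control library. DUSP16 made up most of this last sum in both libraries.

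The Sprouty genes were both slightly higher in the SPRTN siRNA library. SPRY2 (chromosome 13, 80335976 to 80340951, minus strand), an inhibitor of RAS activation by fibroblast growth factor receptors, was at 7.90 FPKM in the SPRTN siRNA library and 5.78 FPKM in the control library. These levels rest on about 1276 and 1344 reads, the ratio was 1.37 (1.26 to 1.47), and 10.8% of all genes had a log2 ratio as high or higher. SPRY4 (chromosome 5, 142310427 to 142326455, minus strand) was at 49.9 FPKM in the SPRTN siRNA library and 46.6 FPKM in the control library, a ratio of 1.07 (1.04 to 1.10). The antisense gene AC005592.2 overlaps SPRY4 and was at 5.05 FPKM in the SPRTN siRNA library and 4.22 FPKM in the control library. The sources used here do not say whether the authors counted by strand, so reads of this pair cannot be told apart with certainty. SPRY1, which is not a member, went the other way, at 16.5 FPKM in the SPRTN siRNA library and 24.9 FPKM in the control library (log2 ratio -0.57). Over all 4 Sprouty genes the sum was 74.3 FPKM in the SPRTN siRNA library and 77.4 FPKM in the control library.

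Both SPRED genes were lower in the SPRTN siRNA library. SPRED1 (chromosome 15, 38252326 to 38357249, plus strand), which anchors neurofibromin at the membrane, was at 6.42 FPKM in the SPRTN siRNA library and 8.77 FPKM in the control library, from about 1361 and 2675 reads. It was 1.37-fold lower in the SPRTN siRNA library (1.28 to 1.46), and 13.8% of all genes had a log2 ratio as low or lower. SPRED2 (chromosome 2, 65310851 to 65432637, minus strand) was at 61.4 FPKM in the SPRTN siRNA library and 73.2 FPKM in the control library, 1.19-fold lower (1.15 to 1.23). NF1, which encodes neurofibromin itself, was at 15.8 FPKM in the SPRTN siRNA library and 20.6 FPKM in the control library. SPRED3 was at 0.33 FPKM in the SPRTN siRNA library and 0.44 FPKM in the control library.

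An siRNA can also lower other transcripts whose 3' UTR pairs with bases 2 to 8 of its guide strand, the seed, as a microRNA does. The members' 3' UTRs in GENCODE 29 were therefore searched on the mRNA strand for 4 nested sites: CTGGTTAA, which pairs with the whole seed and ends in A; CTGGTTA, the seed alone; TGGTTAA, bases 2 to 7 and the final A; and TGGTTA, bases 2 to 7. Each gene was put in the class of its longest site in that order. The guide, derived as the complement of the siRNA strand in the study's design text, and its target are shown with the seed and the site it pairs with in capitals. The target lies in exon 5 of 5 of transcript SPRTN-202, at chr1:231353422-231353440 on the plus strand of GRCh38.
guide: uUAACCAGaacuuccugac
SPRTN target: gtcaggaagttCTGGTTAA

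No member held CTGGTTAA. SPRED1, SPRY4 and DUSP10 held CTGGTTA, each once and in the last exon. DUSP6 held TGGTTAA, DUSP16, SPRED2 and DUSP4 held TGGTTA, and DUSP1, DUSP5 and SPRY2 held none of the 4. The sites are at chr15:38351897-38351903 (plus strand) in SPRED1, chr5:142311374-142311380 (minus strand) in SPRY4, chr1:221701570-221701576 (minus strand) in DUSP10, chr12:89349098-89349104 (minus strand) in DUSP6 and chr12:12475045-12475050 (minus strand) in DUSP16. They are shown 5′ to 3′ as mRNA-strand DNA within 30 bases of the 3' UTR, with the site in capitals, because they separate the members with and without seed pairing.
SPRED1: ggaaaccatttCTGGTTAtttggctataaa
SPRY4: tttgaaaagtgCTGGTTAgttcccgcccct
DUSP10: ctgatttgattCTGGTTAcagtgccataaa
DUSP6: aagtgcggaatTGGTTAAtactaacagaga
DUSP16: acagaccgactTGGTTAtggggatgatgag

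Across the 11137 measured genes with a searched 3' UTR, 3.45% held CTGGTTAA and their median log2 ratio was -0.33. The class of CTGGTTA held 780 genes with a median of -0.20, the class of TGGTTAA 968 genes with a median of -0.21, and the class of TGGTTA 1461 genes with a median of -0.12. The 67.7% of genes with none of the sites had a median of -0.01. These 3' UTRs differ in length, and the members' longest ones run from 672 bases in DUSP1 to 5585 bases in SPRED1. The 3 members lower in the SPRTN siRNA library, DUSP16 (-0.60), SPRED1 (-0.40) and SPRED2 (-0.25), all held a site. The 3 measured members without a site, DUSP5 (0.95), SPRY2 (0.39) and DUSP1 (0.13), were all higher. Over all searched genes, 72.7% of those with any of the sites were below 0, and 51.5% of those with none. SPRY4 (0.10) and DUSP6 (0.30) were higher although each held a 7-base site, and SPRY1 (-0.57) was lower with none. The part of the sites in these values was not tested. SPRED1 further holds TGGTTA at 3 other places and SPRED2 holds it at 2. The 7-base site of the siRNA's other strand, TTCCTGA, is in SPRY4, SPRED1 and DUSP4 and in 22.5% of all searched genes. The searched genes with TTCCTGA had a median log2 ratio of -0.11, and 63.4% of them were below 0.

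**Figure D3:**
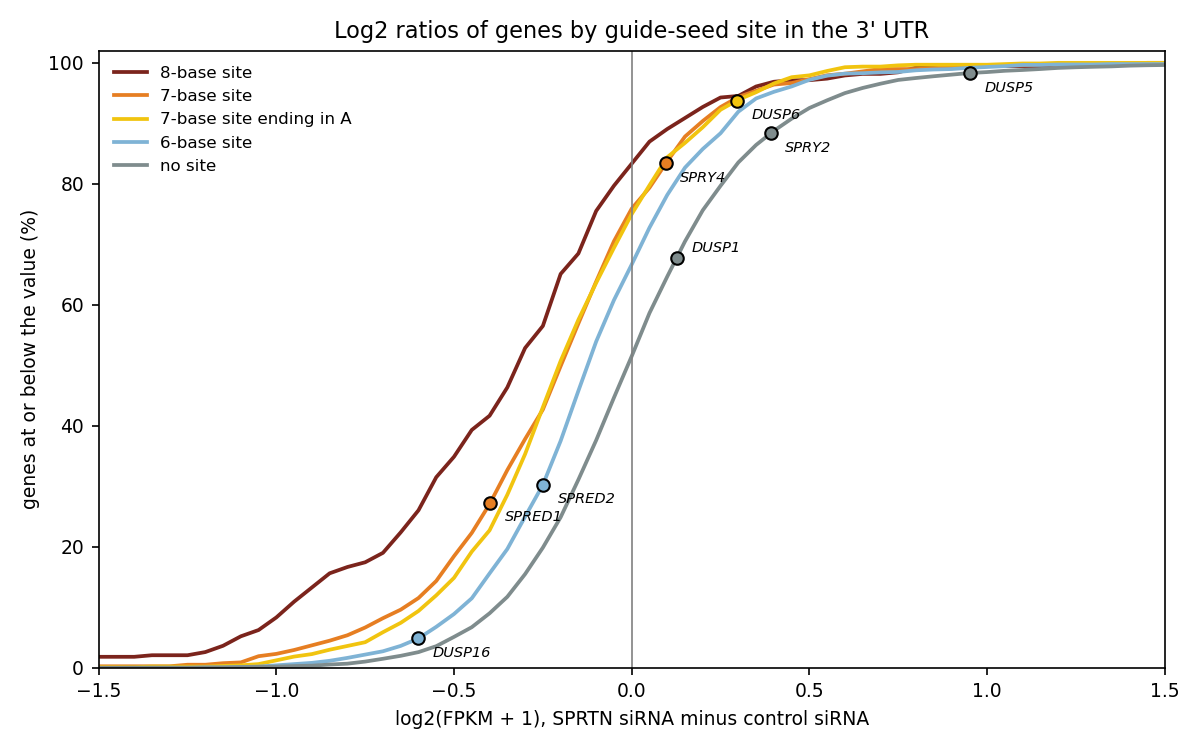
Cumulative share of genes (percent) at or below each log2(FPKM + 1) difference, SPRTN siRNA minus control siRNA, in 5 classes of guide-seed site; the circles put each of the 8 measured members on the curve of its own class. DUSP16 (-0.60) and SPRED1 (-0.40) lie on the lower part of their curves, while DUSP6 (0.30) and DUSP5 (0.95) lie high on theirs.

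Transcripts of immediate early genes often carry AUUUA, the core of the AU-rich elements that shorten mRNA half-life. In the longest annotated 3' UTR of each member, AUUUA occurred 24 times in SPRED1, 8 times in SPRY4, 6 times in DUSP4 and 5 times each in DUSP16 and SPRED2. It occurred 4 times in DUSP1, 3 times in DUSP10, 2 times in SPRY2, 1 time in DUSP6 and 0 times in DUSP5. Per kilobase this was 5.95 in DUSP1 and 4.30 in SPRED1, against a median of 1.84 over 8704 measured genes with a 3' UTR of at least 500 bases, of which 83.9% held the motif. DUSP5 and DUSP1, both nuclear and both early genes, thus had the lowest and the highest density of the 10. The member with the highest ratio, DUSP5, held no AUUUA, and the members with the densest, DUSP1 and SPRED1, had log2 ratios of 0.13 and -0.40.

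The upstream parts of the pathway were looked at to place the members, using lists of ligands, receptors, adaptors, kinases and targets. Of 11 ligands 4 passed the filter. Amphiregulin (AREG), a ligand of the EGF receptor, was at 27.0 FPKM in the SPRTN siRNA library and 15.8 FPKM in the control library. Epiregulin (EREG), a ligand of the same receptor, was at 0.97 FPKM in the SPRTN siRNA library and 3.48 FPKM in the control library, with a log2 ratio of -1.18. These neighbouring members of the EGF family thus differed in opposite directions. Of 12 receptors 10 passed the filter, 5 above and 5 below 0, with a median of 0.00. FGFR2, a fibroblast growth factor receptor, was at 5.65 FPKM in the SPRTN siRNA library and 1.61 FPKM in the control library. FGFR4, the main one of hepatocytes, was at 455.1 and 376.0 FPKM in the SPRTN siRNA and control libraries. MET, the receptor of hepatocyte growth factor, was at 31.8 FPKM in the SPRTN siRNA library and 41.6 FPKM in the control library.

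Among 15 adaptors and RAS regulators 10 had a log2 ratio below 0, against 56.6% of all genes, and the median was -0.12. The docking protein gene GAB1 was lowest, at 4.55 FPKM in the SPRTN siRNA library and 10.8 FPKM in the control library (log2 ratio -1.09), followed by the ubiquitin ligase gene CBL at 2.46 and 4.41 FPKM. SOS1, which loads RAS with GTP, was highest at 39.9 FPKM in the SPRTN siRNA library and 31.6 FPKM in the control library. Of 17 measured genes of the ERK kinase cascade 11 were below 0, against the same 56.6% of all genes. The median of the 17 was -0.11, and 0 reached 2-fold in either direction. RPS6KA3, a kinase activated by ERK, was at 205.7 FPKM in the SPRTN siRNA library and 334.0 FPKM in the control library. MAPK3, which encodes an ERK kinase, was at 41.8 and 45.2 FPKM. MAP2K2 (MEK2), at 143.3 and 142.0 FPKM, hardly differed.

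DUSP10 and DUSP16 act on the kinases at the end of the JNK and p38 branches, which also hold the kinases above them and a kinase that p38 activates. Of 12 measured genes of these branches 9 had a log2 ratio below 0, against 56.6% of all genes, and the median was -0.20. MAPK14, the main p38 kinase gene, was at 32.8 FPKM in the SPRTN siRNA library and 56.5 FPKM in the control library, with a log2 ratio of -0.77 beside -0.60 for DUSP16. MAP3K1 was at 4.53 FPKM in the SPRTN siRNA library and 7.50 FPKM in the control library. At the other end, MAPK13, another p38 kinase gene, was at 38.5 FPKM in the SPRTN siRNA library and 32.8 FPKM in the control library, and MAPKAPK2 was at 50.3 and 44.9 FPKM.

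The list of ERK targets had the highest median of the upstream and downstream groups with more than 4 measured genes, 0.22. In it 11 of 18 were above 0, against 43.4% of all genes. At the 1.5-fold rule 5 of the 18 were higher, against 5.04% of all genes, and 0 were lower, against 5.62%. At 2-fold, 2 were higher, against 1.51%, and 0 were lower, against 0.788%. Besides genes that ERK signalling induces, the list holds ELK1 (0.51) and ERF (-0.36), which encode transcription factors that ERK phosphorylates. The list was led by the immediate early genes EGR1 and JUNB, and FOS (0.83) was also higher. Not all early genes were: IER2 (-0.39) and MYC (-0.33) were lower. IER2 holds CTGGTTAA, and MYC holds none of the sites. EGR1 was at 27.4 FPKM in the SPRTN siRNA library and 11.6 FPKM in the control library (log2 ratio 1.17), and JUNB at 19.5 and 8.48 FPKM (1.11). Lowest were MCL1, an apoptosis inhibitor, at 77.5 FPKM in the SPRTN siRNA library and 114.1 FPKM in the control library, and the ETS factor gene ETV4 at 129.3 and 171.3 FPKM. MCL1 also holds CTGGTTAA, and ETV4 holds none of the sites. Of the targets often read together with DUSP6 and the Sprouty genes, ETV4 (-0.40) and ETV5 (-0.22) were lower, while PHLDA1 (0.20), EPHA2 (0.23) and CCND1 (0.08) were higher, as were DUSP6, SPRY2 and SPRY4. The ratios of the members and of these targets thus went both ways at 72 h.

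Over the 80 measured pathway genes outside the members, 9 held CTGGTTAA, and 8 of these 9 were below 0, with a median of -0.70. The exception was EGFR, at 6.33 FPKM in the SPRTN siRNA library and 5.51 FPKM in the control library. Of all 384 measured genes with CTGGTTAA, 83.3% were below 0, with a median of -0.33. The 48 pathway genes with none of the sites had a median of 0.04, with 22 below 0, against 51.5% of all searched genes with none. Of the 2 pathway genes at least 2-fold lower, GAB1 and EREG, both held CTGGTTAA. The 3 at least 2-fold higher, FGFR2, EGR1 and JUNB, held none of the sites. Of 7 genes with CTGGTTA as the longest site, 5 were below 0, while DUSP8 (0.44) and MAPK13 (0.22) were above. SPRY1 (-0.57) and ETV4 (-0.40) were lower with none of the sites. The part of the sites in these values was not tested. The sites of 4 genes among the lowest are given because they match the SPRTN target in the capital letters. GAB1 holds the site at chr4:143469767-143469774 and chr4:143471957-143471964, EREG at chr4:74384848-74384855 and MAPK14 at chr6:36110728-36110735, all on the plus strand. RPS6KA3 holds it at chrX:20154829-20154836 on the minus strand.
GAB1 first site: gacctagttctCTGGTTAAtgtacatttag
GAB1 second site: gctaaaaaccaCTGGTTAAcgatgtgacag
EREG: taacagtgtgcCTGGTTAAtattaatattc
MAPK14: agacaataccaCTGGTTAAaataaagccta
RPS6KA3: gactattaaatCTGGTTAAatagttcacct

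**Figure D4:**
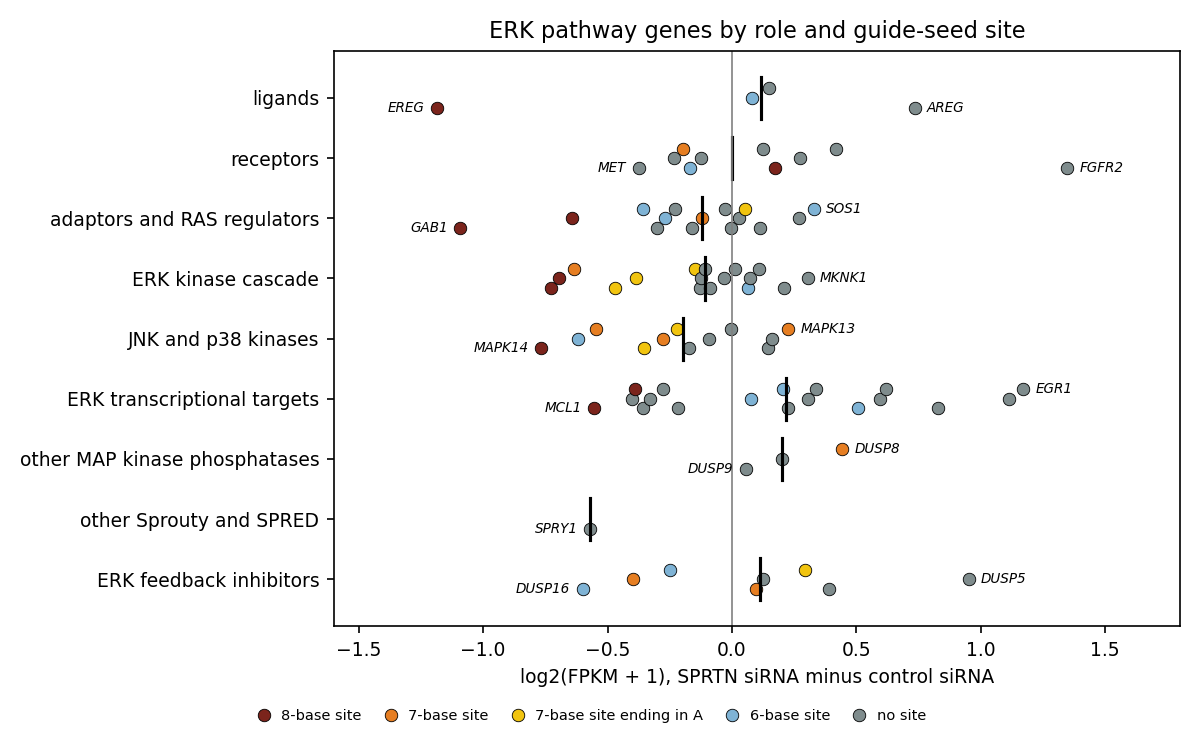
Log2(FPKM + 1) difference, SPRTN siRNA minus control siRNA, of each measured gene in 9 groups of the ERK and stress kinase pathways; colour gives the longest guide-seed site in the 3' UTR and black bars mark group medians. The dark red genes with the 8-base site lie below 0 except EGFR (0.17), and the 8 measured feedback inhibitors, in the lowest line, run from DUSP16 (-0.60) to DUSP5 (0.95) with no dark red point.

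The authors' deposited table compares the same 2 libraries and gives log2 fold changes without a pseudocount. In the authors' deposited table DUSP5 has a log2 fold change of 1.13 and is the only member called, against 12.5% of the 25035 genes with a p-value. In the authors' deposited table DUSP4 has 0.61 and DUSP16 has -0.61, and neither is called. The authors' deposited table gives 9 of the 10 members an adjusted p under 0.05, the exception being DUSP10 at 0.106, and 65.8% of its 25035 genes are likewise under 0.05. The adjusted p in the authors' deposited table is smaller than the p itself for 72.7% of genes, so it is not a usual multiple-testing adjustment, and no weight was put on it.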

How the data were processed

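The authors deposited FPKM values for 60448 genes in 1 SPRTN siRNA library and 1 control library, and a second table with length-scaled coverage (signal), a log2 fold change, a p-value and an adjusted p-value per gene. The submitters' processing notes name GRCh38.p13 and edgeR, edgeR with no stated role; the sources used here give no aligner, counter, annotation or strand setting. Columns were matched to samples by the siRNA prefix of their names.

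The comparison was log2(FPKM + 1), SPRTN siRNA minus control, over 13203 genes at a mean FPKM of at least 1, counted at 2-fold, with no test. Whole reads were recovered as FPKM times the mean transcript length in GENCODE 29, and values of at most 20 reads came within 0.05 of a whole number in 93.3% of cases (SPRTN siRNA) and 94.0% (control). For genes with several transcripts the read numbers are approximate. Intervals are Clopper-Pearson (ratios) and Poisson (levels) from SciPy 1.17.1 and cover counting error only. The ratio intervals, but not the level intervals, were tested on simulated data, drawn as the Poisson counts that the intervals assume.

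The members and lists were chosen with earlier results of these data known. Of each list the 2 highest and 2 lowest genes were open to be named. So were relatives of the members and any gene of the ERK kinase cascade. Other named genes (ETV5, PHLDA1, EPHA2, CCND1, ELK1, ERF, FOS, IER2, MYC, NF1, EGFR, FGFR4, DUSP3) were chosen after their values were seen. Some genes of the lists are not reported here but remain in the counts and medians.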

Additional observations from a re-analysis of the deposited data

How the results depend on the processing

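The count of members at least 2-fold higher was 0, and it was 1 (DUSP5) with a pseudocount of 0.1, with ratios centred on the median gene, with recovered reads and with a 1.5-fold rule. It stayed 0 after median-of-ratios scaling, without a filter, or with the minimum raised to 5 FPKM. The count of members at least 2-fold lower was 0 and became 1 (DUSP16) under the 1.5-fold rule; it was 0 under the other alternatives. The median of the members, 0.11, ranged from 0.10 (median of ratios) to 0.16 (centred). In 48 member values under alternatives the sign changed 0 times, but these settings could not have changed it. A pseudocount, recovered reads or a filter leaves the sign of a ratio as it is. The 2 scaling shifts were smaller than the log2 ratio of any measured member. Over all genes, 199 higher and 104 lower became 368 and 230 with a pseudocount of 0.1, 389 and 247 with recovered reads, and 86 and 81 when the minimum was 5 FPKM. No paired analysis was possible because each group has 1 library. For the same reason no library could be left out. The depth limits DUSP4 and DUSP10, which rest on 85 to 133 reads.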

Other observations

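The atypical dual-specificity phosphatases, small relatives of the members that lack their MAP kinase binding domain, differed little. Of 14 genes 8 passed the filter, 5 with a log2 ratio above 0 and 3 below, and the median was 0.05. DUSP13 was highest, at 4.34 FPKM in the SPRTN siRNA library and 2.87 FPKM in the control library, and DUSP3, a phosphatase of ERK and JNK, was at 74.4 and 61.1 FPKM. DUSP12 was lowest of the 8, at 19.04 FPKM in the SPRTN siRNA library and 23.5 FPKM in the control library.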
